A study of Homo sapiens with 14 samples.

Results

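A group of 7 microRNAs that mark epithelial cells, out of the 2632 in the deposited count table, was followed through every library. The RNA came from extracellular vesicles (EVs), small membrane-bound particles shed by cells into their medium. They were chosen by name: the miR-200 family (miR-200a-3p, miR-200b-3p, miR-200c-3p, miR-141-3p and miR-429), miR-205-5p and miR-203a-3p. All 7 had a row in the raw table, and each had at least 1 count in some library. Together they held 160 of 47091 counts (0.340%).

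The 14 libraries came from medium of cells that were made from the established human embryonic stem cell line hES-2, so every group shares 1 genetic background. Pro-epicardial cells, the precursors of the layer that covers the heart, were kept in StemPro medium under 4 conditions. The NT group (3 libraries, replicate numbers 1, 3 and 4) had no additive and is labelled untreated pro-epicardial. The SB group (4 libraries, numbers 1 to 4) had 6 µM SB-431542 for 8 days, a compound that blocks the TGF-β type I receptor, and is labelled mature epicardial. The TGFb group (4 libraries, numbers 1 to 4) had TGF-β1 at 5 ng/ml during the first 4 days and no additive during the next 4 days. The FGF group (3 libraries, numbers 2 to 4) had 10 ng/ml basic FGF for 8 days. No miRNA list used here defines the epicardium, so that label was not checked. Medium passed through a 100 kDa filter was used from day 4, conditioned for 48 h at a time and collected on days 6 and 8. The labels do not say whether replicate numbers mark separate cultures, so the p-values below measure the spread between these libraries, which may be technical.

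Epithelial cells are joined to their neighbours, and in the epithelial-to-mesenchymal transition they lose those junctions and become motile. The miR-200 family and miR-205 hold the epithelial state by repressing ZEB1 and ZEB2, the transcription factors that shut off E-cadherin, and ZEB1 and ZEB2 in turn repress the miR-200 genes. TGF-β drives this transition in many cells, epicardial cells among them. miR-205 and miR-203 are best known from the skin and other stratified epithelia, where miR-203 limits the stem-cell factor p63.

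The mature sequences are shown because they set which members act on the same targets and which can be confused in counting. All 7 were found in RefSeq (GRCh38.p14) and are written 5′ to 3′ with the seed, bases 2 to 8, in capitals. The members fell into 4 seed groups.

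miR-200b-3p: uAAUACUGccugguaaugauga

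miR-200c-3p: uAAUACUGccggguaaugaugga

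miR-429: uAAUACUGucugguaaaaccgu

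miR-200a-3p: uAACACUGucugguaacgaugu

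miR-141-3p: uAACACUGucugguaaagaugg

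miR-205-5p: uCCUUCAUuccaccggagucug

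miR-203a-3p: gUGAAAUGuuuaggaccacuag

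The first 3 share the seed AAUACUG and the next 2 the seed AACACUG, which differ at 1 base (C4U from miR-200a-3p to miR-200b-3p, counted from the 5′ end). Over the 22 bases compared, miR-200b-3p and miR-200c-3p differed at 2 positions (U11G and A22G), and miR-200a-3p and miR-141-3p at 2 (C17A and U22G). How the authors counted reads of such near-identical pairs is not given in the sources used here, so the split within each pair is uncertain. miR-429 differed from miR-200b-3p at 6 positions.

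The members come from 4 places in the genome. On chromosome 1, MIR200B (chr1:1167104-1167198), MIR200A (chr1:1167863-1167952) and MIR429 (chr1:1169005-1169087) lie in a row on the plus strand, and GENCODE 29 (GRCh38) has no other gene over them. On chromosome 12, MIR200C (chr12:6963699-6963766) and MIR141 (chr12:6964097-6964191) lie on the plus strand in an intron of the non-coding gene MIR200CHG. MIR205 (chr1:209432133-209432242, plus strand) overlaps an exon of the non-coding gene MIR205HG. MIR203A (chr14:104117405-104117514, plus strand) overlaps MIR203B on the opposite strand, and both arms of miR-203b were at 0 in all 14 libraries.

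Depth sets what can be seen of miRNAs this scarce. The libraries held 115 to 14862 counts each, and 1 count stood for 0.00673% to 0.870% of a library. A count of 0, which allows up to 3 counts of the total, limited a share to 0.0202% in the deepest library and to 2.61% in the shallowest. Of the 98 values (7 members in 14 libraries), 52 were 0, 19 were 1 count and 6 were 10 counts or more. By replicate number, the 3 libraries of number 1 had 345 to 14862 counts and the 3 of number 2 had 115 to 231. Those of number 3 had 3241 to 9462 and those of number 4 had 868 to 2770. In EV RNA of a whole culture, fewer cells that release a miRNA and less of it per cell cannot be told apart. Intervals below are 95% Wilson intervals and, like the limits, cover counting error only.

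**Figure D1:**
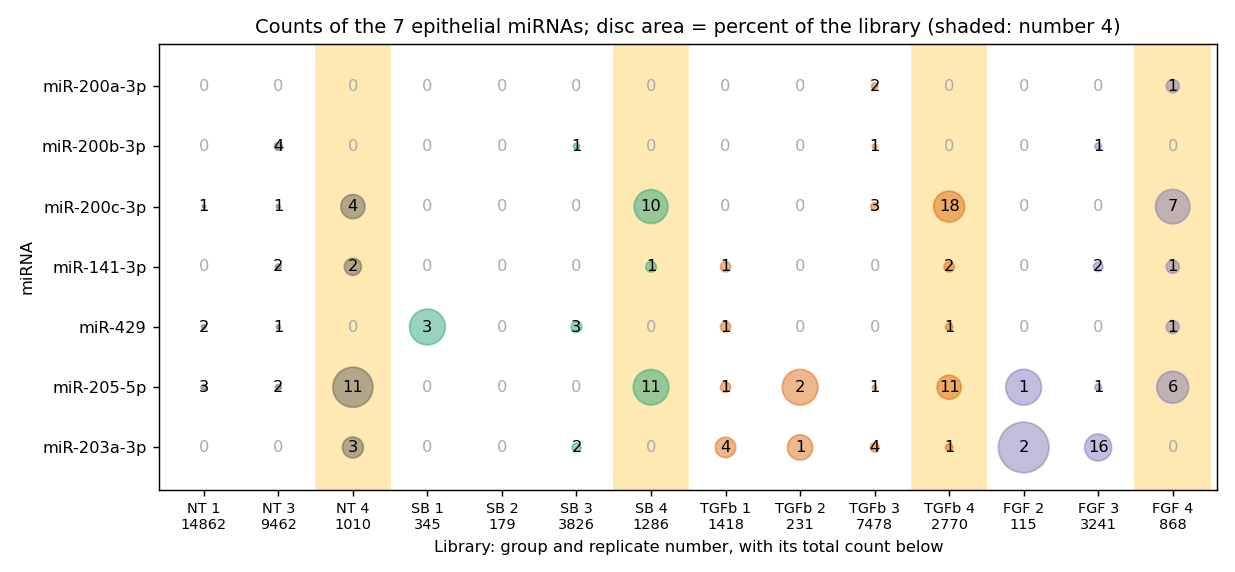
Counts of each of the 7 miRNAs (rows) in each of the 14 libraries (columns, with group, replicate number and total count), with the area of each disc in proportion to the percent of that library's counts; colours mark the groups and shading the libraries of replicate number 4. miR-200c-3p (4, 10, 18 and 7 counts) and miR-205-5p (11, 11, 11 and 6) stand out in the 4 shaded libraries, and miR-203a-3p has its highest count, 16, in FGF replicate 3.

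The counts of the chromosome 12 pair, most of them miR-200c-3p, were concentrated in the libraries of replicate number 4. miR-200c-3p, the member of that pair with the most counts, had 44 in 7 of the 14 libraries. In NT it had 1 count in replicate 1 (0.00673%), 1 in replicate 3 (0.0106%) and 4 in replicate 4 (0.396%). In SB it had 0 in replicates 1, 2 and 3, which allows up to 0.870%, 1.68% and 0.0784%, and 10 in replicate 4 (0.778%, interval 0.423% to 1.43%). By observed share the number 4 library was the highest of its group in both, but the limits of SB replicates 1 and 2 lie above it.

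In TGFb, miR-200c-3p had 0 counts in replicates 1 and 2, which allows up to 0.212% and 1.30%. It had 3 in replicate 3 (0.0401%) and 18 in replicate 4 (0.650%, interval 0.411% to 1.02%). In FGF it had 0 in replicates 2 and 3, which allows up to 2.61% and 0.0926%, and 7 in replicate 4 (0.806%, interval 0.391% to 1.66%). By observed share number 4 was again the highest in each group, but the limits of TGFb and FGF replicate 2 lie above it. Pooled, number 2 had 0 of 525 counts, which allows up to 0.571% by the limit of 3 counts and up to 0.726% by the Wilson interval. The interval of number 4 (0.657%, interval 0.481% to 0.897%) takes in both values, so number 2 is not separated from it. Of the 44 counts, 39 (88.6%, interval 76.0% to 95.05%) lay in 4 libraries that hold 12.6% of all counts in the table.

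The number 4 libraries, at 868 to 2770 counts, were in no group the deepest. TGFb replicate 1, with 1418 counts, lay between the number 4 libraries in depth and had 0 counts of miR-200c-3p. At the share of NT replicate 4, NT replicate 1 would have held 58.9 counts of miR-200c-3p, and it held 1. The part of depth in the number 4 pattern was not tested. Within TGFb the share in number 4 was 19.8 times that of the other 3 libraries pooled (exact interval of the ratio 5.77 to 105), and within NT 48.2 times (6.90 to 532). These intervals leave out the spread between libraries, and TGFb replicate 3 held 7478 of the 9127 counts pooled in TGFb. The other SB libraries had 0 of 4350 counts and the other FGF libraries 0 of 3356. Against a floor of 3 counts over those libraries, the share in number 4 was 11.3 times in SB and 9.02 times in FGF. Those ratios leave out the counting error of the number 4 library and are no lower bounds.

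miR-141-3p, from the same host gene, had 11 counts in 7 libraries and never more than 2 in one. NT had 0, 2 and 2 counts in replicates 1, 3 and 4. SB had 0, 0, 0 and 1 in replicates 1 to 4, TGFb had 1, 0, 0 and 2, and FGF had 0, 2 and 1 in replicates 2 to 4. Number 4 held 6 of the 11 (54.5%, interval 28.0% to 78.7%). By observed share, number 4 was the highest library of every group here too, although in TGFb by 0.0722% against 0.0705%, 2 counts against 1. The limits of SB replicates 1, 2 and 3 (0.870%, 1.68% and 0.0784%) lie above the 0.0778% of SB replicate 4.

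The chromosome 1 cluster did not share that distribution. Its 3 miRNAs had 22 counts together, of which 3 (13.6%, interval 4.75% to 33.3%) were in number 4, close to the 12.6% of all counts that those libraries hold. The chromosome 12 pair had 55 counts, of which 45 (81.8%, interval 69.7% to 89.8%) were in number 4, 39 of miR-200c-3p and 6 of miR-141-3p. miR-200b-3p and miR-200c-3p have the same seed, yet the 7 counts of miR-200b-3p all came from number 3 libraries, 4 of them in NT and 1 in each other group. Number 4 had 0 counts of miR-200b-3p out of 5934, which allows up to 0.0506%, while its pooled share of miR-200c-3p was 0.657%.

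miR-429, the third miRNA with that seed, had 12 counts in 7 libraries. It had 2, 1 and 0 counts in NT replicates 1, 3 and 4, and 3, 0, 3 and 0 in SB replicates 1 to 4. TGFb had 1, 0, 0 and 1 in replicates 1 to 4, and FGF had 0, 0 and 1 in replicates 2 to 4. SB had the highest mean share, 0.237% ± 0.423 (SD, n = 4), which rests on 3 of 345 counts in SB replicate 1 (0.870%, interval 0.296% to 2.53%). Without that library the SB mean was 0.0261%. The groups overlapped, since each had a library with 0 counts. miR-200a-3p was the scarcest member, with 2 counts in TGFb replicate 3 and 1 in FGF replicate 4. It was at 0 in all of NT (25334 counts, up to 0.0118%) and all of SB (5636 counts, up to 0.0532%).

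**Figure D2:**
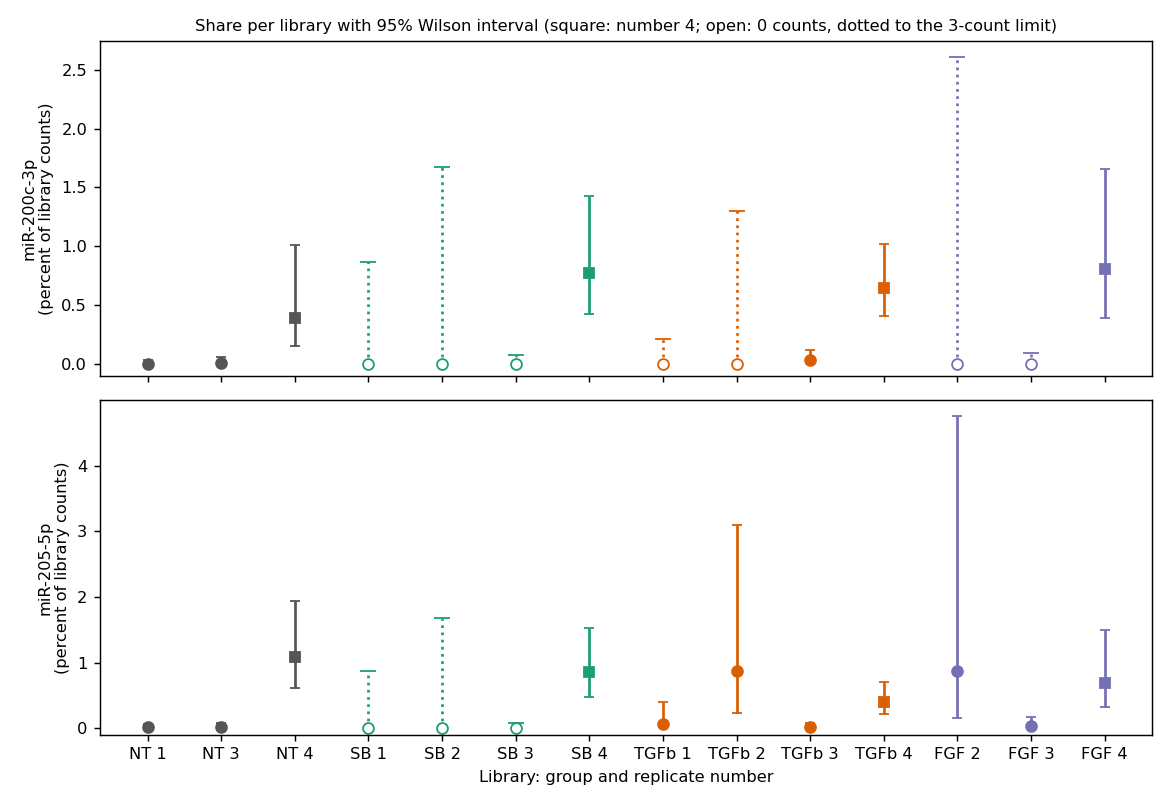
Share of library counts (percent) of miR-200c-3p (top) and miR-205-5p (bottom) in each library by group and replicate number, with 95% Wilson intervals; squares are number 4, open symbols are counts of 0 and dotted lines run to the limit of 3 counts. Each square of miR-200c-3p (0.396% to 0.806%) lies above every other library's observed value, though not above every dotted line. miR-205-5p also reaches 0.866% and 0.870% in TGFb and FGF replicate 2, on 2 counts and 1 count.

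miR-205-5p was the most abundant member, with 50 counts in 11 libraries. In NT it had 3 counts in replicate 1 (0.0202%), 2 in replicate 3 (0.0211%) and 11 in replicate 4 (1.09%, interval 0.609% to 1.94%). In SB it had 0 counts in replicates 1, 2 and 3, which allows up to 0.870%, 1.68% and 0.0784%. SB replicate 4 had 11 (0.855%, interval 0.478% to 1.53%). All of the SB counts therefore came from 1 library, but the limits of replicates 1 and 2 lie above its share.

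In TGFb, miR-205-5p had 1 count in replicate 1 (0.0705%), 2 in replicate 2 (0.866%), 1 in replicate 3 (0.0134%) and 11 in replicate 4 (0.397%, interval 0.222% to 0.710%). In FGF it had 1 in replicate 2 (0.870%), 1 in replicate 3 (0.0309%) and 6 in replicate 4 (0.691%, interval 0.317% to 1.50%). Number 4 held 39 of the 50 counts (78.0%, interval 64.8% to 87.2%). It was the highest library by share in NT and SB, while in TGFb and FGF the shallow number 2 library was higher.

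The number 2 libraries are too shallow to place. Pooled, they had 3 counts of miR-205-5p in 525 (0.571%, interval 0.195% to 1.67%), an interval that holds the 0.657% of number 4. The deeper numbers were lower: 0.0241% in number 1 (interval 0.00936% to 0.0619%) and 0.0167% in number 3 (0.00648% to 0.0428%). Within groups, the share in number 4 was 53.0 times that of the other libraries pooled in NT (exact interval 17.0 to 195), 9.06 times in TGFb (2.68 to 39.0) and 11.6 times in FGF (2.07 to 118). These intervals, too, leave out the spread between libraries. In SB, against 0 of 4350 counts and a floor of 3 counts over those libraries, the share in number 4 was 12.4 times, again without the counting error of number 4.

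miR-203a-3p, found with miR-205 in skin, was spread in another way. It had 33 counts in 8 libraries, and number 4 held 4 of them (12.1%, interval 4.82% to 27.3%), close to that number's 12.6% of all counts. In FGF it had 2 counts in replicate 2 (1.74%), 16 in replicate 3 (0.494%, interval 0.304% to 0.800%) and 0 in replicate 4, which allows up to 0.346%. In NT it had 0, 0 and 3 counts in replicates 1, 3 and 4, and in SB 0, 0, 2 and 0 in replicates 1 to 4. TGFb had 4, 1, 4 and 1 counts in replicates 1 to 4 and was, for this member, the group with a count in every library.

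FGF replicate 3 held 48.5% of the miR-203a-3p counts and 6.88% of all counts. Some mesenchymal miRNAs, named here after their values were seen, also had a large part of their counts there: 65.2% of miR-199a-3p (30 of 46 counts), 46.0% of miR-143-3p (74 of 161) and 32.6% of miR-21-5p (169 of 518). Others of that list did not: miR-221-3p had 9.30%, miR-155-5p 8.82% and miR-29a-3p 4.26%, and miR-222-3p had 0 of 11 counts. The summed share of the 14 mesenchymal miRNAs was 9.32% to 13.0% in the 3 FGF libraries and at most 6.93% in the other groups. FGF replicate 3 held 1 of 50 counts of miR-205-5p and 0 of 44 of miR-200c-3p. Their part in the miR-203a-3p value was not tested.

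The number 4 pattern was then read against the rest of the table, over the 164 miRNAs with at least 10 counts. The median miRNA had 16.7% of its counts in number 4, with quartiles of 8.29% and 27.1%. By that percentage miR-200c-3p ranked 2, miR-205-5p 3 and miR-141-3p 8 (tied with miR-27a-3p), while miR-429 ranked 79 and miR-203a-3p 102. In 10.4% of the 164 (17 miRNAs) the number 4 library had the highest share in each of the 4 groups, and of the 5 members with at least 10 counts this held for 2, miR-200c-3p and miR-141-3p. The attention to number 4 came from earlier results on these data, so the ranks are a description and carry no test.

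**Figure D3:**
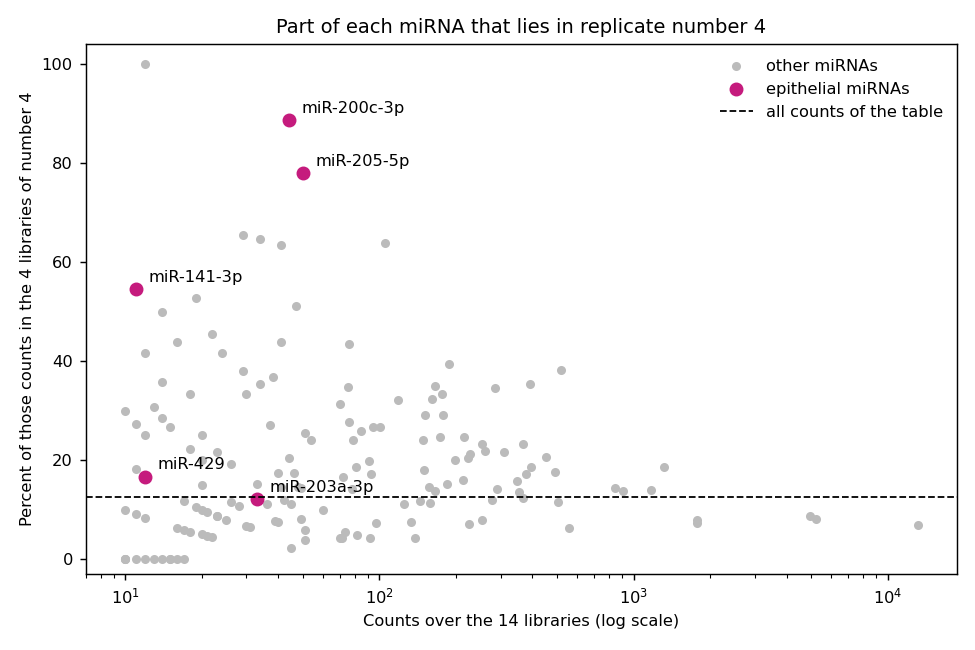
Percent of each miRNA's counts that lies in the 4 libraries of replicate number 4 (vertical axis) against its counts over all 14 libraries (horizontal axis, log scale), for the 164 miRNAs with at least 10 counts; the dashed line is the 12.6% of all counts in those libraries. miR-200c-3p (88.6%) and miR-205-5p (78.0%) lie far above the line, miR-141-3p (54.5%) above it, and miR-429 (16.7%) and miR-203a-3p (12.1%) near it.

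The other epithelial miRNAs were spread widely around the table's share in number 4. Of a list of 15, 10 had counts, and 19.7% of their 575 counts lay in number 4. miR-183-5p (309 counts, 21.7% in number 4) and miR-182-5p (145 counts, 11.7%), which come from 1 cluster and are common in sensory and other epithelia, made up most of the list. Higher parts belonged to miR-34c-5p (5 of 12 counts, 41.7%), miR-31-5p (4 of 13, 30.8%) and miR-96-5p (3 of 10, 30%). The difference between this list and the members was not tested. miR-184 of the cornea and lens had 72 counts (16.7%). miR-375-3p (2 counts) and miR-192-5p (2 counts), known from endocrine and gut epithelium, were found in number 4 only, in 1 library each. miR-203b (both arms), miR-215-5p, miR-34b-5p and miR-449a were at 0.

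Lists of markers of other sources also had more of their counts in number 4 than the 12.6% of the whole table. So had the median of the 164 miRNAs with at least 10 counts (16.7%, upper quartile 27.1%). The mesenchymal list had counts for 13 of 14 miRNAs and 33.5% of its 1067 counts in number 4. Its members differed: miR-21-5p had 198 of 518 counts there (38.2%) and miR-29a-3p 24 of 47 (51.1%). miR-199a-3p had 17.4% there and miR-100-5p 8.70%. The summed share of the list was 3.34% to 9.79% in the number 4 libraries and 0.720% to 13.0% in the other 10. A serum and red-cell list had counts for 4 of 7 and 50.9% of its 57 counts in number 4, with 0.253% to 0.778% there and 0% to 3.91% elsewhere, the latter in SB replicate 2. In it miR-122-5p, the liver miRNA, had 22 of 34 counts in number 4 and 7 in SB replicate 2, while miR-142-3p of blood cells had 7 of 14. The red-cell miRNA miR-486-5p (6 counts) and the myeloid miR-223-3p (3 counts) had 0 in number 4, and miR-451a, miR-144-3p and miR-144-5p of red cells were at 0 in all libraries. A pluripotent stem cell list had 5 counts over 2 of 8 miRNAs. The part of these sources in the epithelial counts was not tested.

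The opposite arms of the hairpins were nearly absent. Of the 6 arms looked for, 5 (miR-200a-5p, miR-200c-5p, miR-141-5p, miR-205-3p and miR-203a-5p) were at 0 in all libraries. miR-200b-5p had 1 count in NT replicate 3 and 1 in FGF replicate 3, 2 libraries in which miR-200b-3p also had counts.

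The summed share of the 7 members had a mean of 0.709% ± 1.10 (SD, n = 3) for NT and 0.684% ± 0.782 (n = 4) for SB. It was 0.783% ± 0.554 (n = 4) for TGFb and 1.69% ± 1.00 (n = 3) for FGF. The lowest, median and highest library had 0.0404%, 0.106% and 1.98% in NT and 0%, 0.513% and 1.71% in SB. They had 0.147%, 0.842% and 1.30% in TGFb and 0.617%, 1.84% and 2.61% in FGF. The groups overlapped, and the spread within each group was of the size of its mean. Numbers 3 and 4 have a library in every group. In number 4 the sum was 1.98% in NT, 1.71% in SB, 1.19% in TGFb and 1.84% in FGF, with intervals that overlap (1.29% to 3.04%, 1.13% to 2.58%, 0.850% to 1.67% and 1.14% to 2.97%). In number 3, the deeper set, it was 0.106% in NT, 0.157% in SB, 0.147% in TGFb and 0.617% in FGF. There the FGF interval (0.400% to 0.951%) lay above those of NT (0.0574% to 0.194%), SB (0.0719% to 0.342%) and TGFb (0.0822% to 0.263%). These intervals cover the counting error of 1 library per group, and 16 of the 20 member counts in FGF replicate 3 were miR-203a-3p.

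By member, the group order differed. The mean share of miR-205-5p was 0.214% ± 0.428 for SB (n = 4), the lowest, then 0.337% ± 0.391 for TGFb (n = 4), 0.377% ± 0.617 for NT (n = 3) and 0.531% ± 0.442 for FGF (n = 3). In NT, SB, TGFb and FGF, that of miR-200c-3p was 0.138% ± 0.224, 0.194% ± 0.389, 0.172% ± 0.319 and 0.269% ± 0.466, and that of miR-203a-3p was 0.0990% ± 0.171, 0.0131% ± 0.0261, 0.201% ± 0.191 and 0.744% ± 0.896. No neighbours in these orders differed by more than their spread. Without the number 4 libraries, the mean of miR-205-5p was 0.0207% ± 0.000673 for NT (n = 2) and 0% for SB (n = 3). For TGFb it was 0.317% ± 0.477 (n = 3) and for FGF 0.450% ± 0.593 (n = 2), with the highest value in the number 2 library of each. The mean of miR-200c-3p was then 0.00865% for NT, 0.0134% for TGFb and 0% for SB and FGF. The FGF mean of miR-203a-3p was 0.247% without replicate 2, a library of 115 counts.

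Conditions were compared with edgeR's quasi-likelihood test over the 47 miRNAs that passed the expression filter, among which miR-205-5p was the 1 member. It did not pass among the 4 conditions (edgeR adjusted p = 0.999), where 0% of the 47 passed the threshold of 0.05 and 5 were under 0.05 before adjustment. Against NT, its log2 fold change was −0.04 (SE 2.11, edgeR adjusted p = 0.984) in SB, −0.12 (SE 1.85, edgeR adjusted p = 0.989) in TGFb and 0.19 (SE 2.01, edgeR adjusted p = 0.981) in FGF. The share of miRNAs called in those comparisons was 2.13%, 0% and 2.13%. The standard errors, derived from the test's F statistic and near 2 log2 units, were far larger than these fold changes. With the replicate number as a block, they were 1.23, 1.22 and 1.34 in SB, TGFb and FGF against NT. Then 4 of the 47 miRNAs were called among the 4 conditions, and miR-205-5p was not (edgeR adjusted p = 0.980).

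Between the additives, the log2 fold change of miR-205-5p was −0.08 (SE 1.70, edgeR adjusted p = 0.994) in TGFb against SB, 0.24 (SE 2.01, edgeR adjusted p = 0.964) in FGF against SB and −0.32 (SE 1.97, edgeR adjusted p = 0.970) in TGFb against FGF, comparisons in which 0% of the 47 were called. With the replicate number as a block, 3, 1 and 2 of the 47 were called in these comparisons, and miR-205-5p was not among them. With DESeq2, too, miR-205-5p passed in none of the 6 comparisons (lowest adjusted p = 0.925). The direction turned in all 6 when the number 4 library of 1 group was left out. SB against NT became 2.58 and TGFb against NT 2.80 without NT replicate 4. TGFb against SB became 5.78 without SB replicate 4, when SB was at 0, and TGFb against FGF 1.46 without FGF replicate 4. FGF against NT and FGF against SB turned too, to −1.46 and −1.18, without FGF replicate 4. In all, leaving out any 1 of 12 libraries (every one but TGFb replicates 2 and 4) turned the direction of at least 1 comparison.

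The other 6 members did not pass the expression filter, which asks for a high enough share in several libraries rather than a high total. miR-205-5p met it partly through TGFb and FGF replicate 2, at 0.866% and 0.870%, on 2 counts and 1 count. miR-200c-3p, with 44 counts, did not meet it. All 7 members entered a fit of all 447 miRNAs with any count. Of the 7 members, 0 passed in any of the 6 comparisons or among the 4 conditions (edgeR adjusted p from 0.562 to 1), where 0% or 0.224% of the 447 passed. Before adjustment, miR-203a-3p was under 0.05 in FGF against NT (log2 fold change 3.03, SE 1.38, edgeR adjusted p = 0.562) and in FGF against SB (3.43, SE 1.42, edgeR adjusted p = 0.831), and also among the 4 conditions (edgeR adjusted p = 0.730). miR-429 was under it in SB against NT (2.66, SE 1.31, edgeR adjusted p = 0.618). The FGF counts of miR-203a-3p were 2, 16 and 0, and those of miR-429 in SB were 3, 0, 3 and 0. Over the members, the median log2 fold change against NT was −0.27 in SB, 0.61 in TGFb and 0.49 in FGF, beside −0.56, −0.13 and −1.01 over all 447. Over the 47 that passed the expression filter it was −0.04, 0.09 and −0.001. Most of the 447 had few counts, and NT holds 25334 of the 47091 counts, so depth enters these medians. The TGFb median of the members is that of miR-429, with 2 counts against 3 in NT. The difference between members and table was not tested.

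Of the pathway's other side, 3 mesenchymal miRNAs could be tested, miR-21-5p, miR-143-3p and miR-221-3p, and 0 of 3 passed in each of the 6 comparisons. In FGF against NT, miR-21-5p, which TGF-β signalling induces in many cells, had a log2 fold change of 2.42 (SE 0.86, edgeR adjusted p = 0.148). That of miR-143-3p, of smooth muscle and stroma, was 2.94 (SE 1.32, edgeR adjusted p = 0.261), and that of miR-221-3p was −0.34 (SE 1.00, edgeR adjusted p = 0.892). In TGFb against NT they were 1.31 (SE 0.81) for miR-21-5p, 1.00 (SE 1.25) for miR-143-3p and 0.60 (SE 0.90) for miR-221-3p, each with an edgeR adjusted p of 0.935. Of the other epithelial list, miR-183-5p could be tested and did not pass in any (log2 fold change −0.65 in SB, −0.90 in TGFb and −0.84 in FGF against NT).

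The miRNAs whose share followed the summed share of the 7 members most closely were miR-21-5p (Spearman rho 0.71 over 14 libraries), miR-4516 (0.66) and miR-93-5p (0.64), out of 46 tested miRNAs that are not members and whose median rho was 0.23. These points share library depth, and no test was made. Among the members, over the same 14 libraries, the share of miR-205-5p had a rho of 0.57 with miR-141-3p, 0.48 with miR-203a-3p and 0.36 with miR-200c-3p. The rho was −0.03 with miR-200a-3p, −0.39 with miR-429 and −0.40 with miR-200b-3p. Many shares are tied at 0 (52 of the 98 member values), so the order of these rho values is uncertain. miR-200c-3p was found in 7 libraries and miR-205-5p in all 7 of these and in 4 more.

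The authors' adjusted table, made in a way that is not given in the sources used here, differed most for miR-205-5p among the members when read by replicate number. In number 4 its adjusted values were 2, 3, 2 and 2 in NT, SB, TGFb and FGF, where the raw counts were 11, 11, 11 and 6. In NT replicates 1 and 3 the adjusted value was 17 in each, where the raw counts were 3 and 2. Number 4 held 18.4% of the adjusted values, against 78.0% of the raw counts. For miR-200c-3p the adjusted values in number 4 were 2, 3, 4 and 2 in NT, SB, TGFb and FGF, where the raw counts were 4, 10, 18 and 7, and the part in number 4 was 73.3%. For miR-203a-3p the adjusted value was 28 in FGF replicate 3, against 16 raw counts, 10 in TGFb replicate 3, against 4, and 6 in TGFb replicate 1, against 4. The adjustment changed 17 of the 46 nonzero values of the members and left the 52 zeros at 0.

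**Figure D4:**
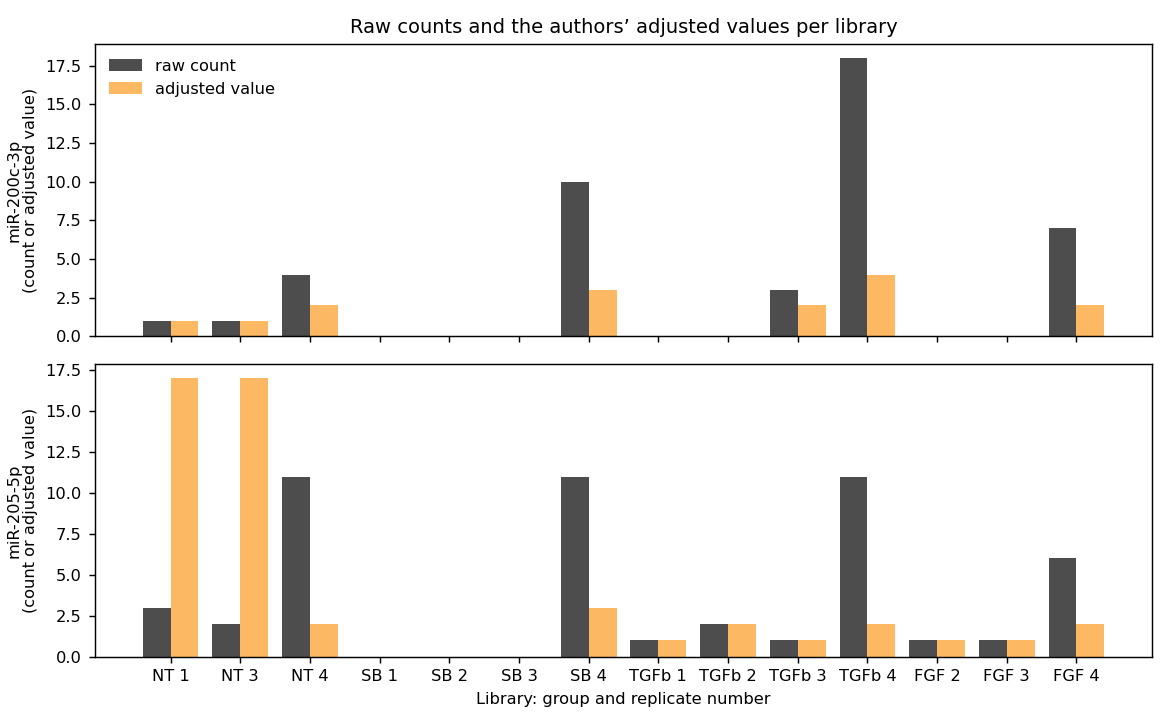
Raw counts (dark bars) and the authors' adjusted values (light bars) of miR-200c-3p (top) and miR-205-5p (bottom) in each library by group and replicate number. The adjusted values are below the raw counts in the 4 libraries of number 4, and for miR-205-5p they rise to 17 in NT replicates 1 and 3, where the raw counts were 3 and 2.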

How the data were processed

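The deposited raw table gives counts per miRNA that the authors did not normalize, for 14 libraries made with the QIAseq miRNA kit after polyethylene glycol precipitation, per the labels' protocols. The genome build was GRCh38, per the submitters' processing notes. The aligner, annotation and any use of molecular identifiers are not given in the sources used here. The authors' second table holds whole-number adjusted values, taken as a score since the adjustment is unstated. Its 2 lines without a name and its 14 CPM columns of single libraries were left out.

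The members, lists and tests were chosen with earlier results of these data known. The rule named the 7 members, the members of 5 further lists, and the 3 tested miRNAs closest to the members' summed share. Groups and replicate numbers came from the labels. Shares are counts over the library total.

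Tests used edgeR 4.0.16 (robust glmQLFit, TMM, filterByExpr with groups and minimum count 10, library sizes over the kept miRNAs) in R 4.3.3 on all 14 libraries, with Benjamini-Hochberg adjustment over all 47 miRNAs tested and a threshold of 0.05. The script was tested on simulated data. Alternatives included DESeq2 1.42.0 and limma 3.58.1 on log2(value + 1). All 18 pairs of replicates within groups differed beyond sampling noise (resampled chi-square test of counts, p = 0.0005, the smallest that 2000 resamples give), so none were merged for the tests. Pooled shares and their intervals ignore that spread.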

Additional observations from a re-analysis of the deposited data

Results flagged for a closer look

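In the groups of 4 libraries (SB and TGFb), 15 sets of 4 shares were compared, 13 of single members and 2 of the members' sum. In 9 sets, all of single members, 1 library stood apart. The rule's rate of about 1 in 20 by chance is for continuous values and does not hold for sets with many counts of 0. With counts of 0 in the other 3 libraries, any count at all is enough, so most of these rest on very few counts. In SB replicate 4, miR-205-5p (0.855%, 11 counts), miR-200c-3p (0.778%, 10 counts) and miR-141-3p (0.0778%, 1 count) were the sole values above 0 of their group. In TGFb replicate 4, miR-200c-3p (0.650%, 18 counts) lay above the other 3, its gap to the next being 0.938 of the range. In SB replicate 1, miR-429 (0.870%, 3 counts) was the highest (gap 0.910 of the range). The remaining values were miR-203a-3p (0.0523%, 2 counts) and miR-200b-3p (0.0261%, 1 count) in SB replicate 3, and miR-200a-3p (0.0267%, 2 counts) and miR-200b-3p (0.0134%, 1 count) in TGFb replicate 3.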

How the results depend on the processing

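The test of miR-205-5p passed in 0 of 167 alternative fits (lowest adjusted p 0.364, in the authors' adjusted table), and its log2 fold change, near 0, turned in 36, of which 23 left out 1 library. TGFb against SB turned with no expression filter (0.22), only the 2 groups compared (0.24), the adjusted table in limma (1.38) and library totals over all miRNAs (0.12). Without the number 4 libraries, TGFb against NT was 2.04, TGFb against SB 5.04 and TGFb against FGF 0.37. SB was then at 0, so folds against it depend on the prior count. In libraries of at least 500 counts, SB against NT was 0.28, FGF against NT −0.18 and FGF against SB −0.46. That setting and the library totals were chosen after seeing the data.

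Same-numbered libraries of different groups had deviations that correlated above 0.1 in 15 of 18 pairs (mean 0.298), and 10 of 14 libraries correlated best with one of their own number. Most pairs thus shared deviations by number. The numbers were not made the main design because 3 pairs were under 0.1 and no label says what a number marks. With the replicate block, FGF against NT was −0.18, TGFb against SB 0.45 and TGFb against FGF 0.057. miR-205-5p still passed in none, but its standard errors, derived from the F statistic, were 1.22 to 1.38 in place of 1.70 to 2.11. Over all 47 miRNAs, the calls among the 4 conditions went from 0 to 4, in FGF against NT from 1 to 2, in TGFb against SB from 0 to 3, in FGF against SB from 0 to 1 and in TGFb against FGF from 0 to 2.

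Leaving out 1 library gave −5.79 to 2.58 for SB against NT, −1.03 to 2.80 for TGFb against NT, −1.46 to 2.86 for FGF against NT (2.855 at its highest), −0.97 to 5.78 for TGFb against SB, −1.18 to 5.83 for FGF against SB, −1.22 to 1.46 for TGFb against FGF, and an adjusted p of 0.744 to 1.00 among the 4 conditions.

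The part in number 4 moved when every library weighed the same, to 97.9% for miR-200c-3p and 61.6% for miR-205-5p, and in the adjusted table, to 73.3% and 18.4%. Leaving out 1 number 4 library gave 80.8% to 87.5% for miR-200c-3p, 71.8% to 75% for miR-205-5p, 44.4% to 50% for miR-141-3p, 9.09% to 16.7% for miR-429 and 3.33% to 12.1% for miR-203a-3p, whose low end is without NT replicate 4. Group means moved far when 1 library was left out. Without NT replicate 4, NT had 0.0207% of miR-205-5p in place of 0.377%, 0.00865% of miR-200c-3p in place of 0.138% and 0% of miR-203a-3p. Without SB replicate 4, SB had 0% of miR-205-5p and miR-200c-3p, and without SB replicate 1, 0.0261% of miR-429 in place of 0.237%. Counts of 0 in the shallow libraries limit all of these values.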
